A study of Homo sapiens with 12 samples.

Results

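Replicate 1 of each group was compared with replicates 2 and 3 of the same group in RNA-seq libraries of HUDEP-2 cells, an immortalised line of human erythroid precursors that needs doxycycline to proliferate. The libraries were taken by the replicate number in their titles, which placed 4 of 12 libraries (1 per group) against the other 8 (2 per group). The 4 groups crossed a guide with a treatment. sgControl cells carried a scrambled guide and sgEGR1 cells a guide aimed at an element upstream of EGR1, both in a lentivirus that also expresses KRAB-dCas9, a CRISPR interference repressor, and both were sorted pools rather than clones. All cells had grown with SCF (stem cell factor, the ligand of the receptor Kit), EPO at 4 U/mL, dexamethasone at 0.4 µg/mL and doxycycline at 1 µg/mL, were then starved of these factors for 5 h, and finally received PBS or SCF at 50 ng/mL for 1 h. The methods call the replicates biological and separately isolated, but the labels give no day, culture round, operator or sequencing run. Whatever set replicate 1 apart therefore cannot be told apart from the number itself, and no cause of a difference given below was tested. P-values measure the spread between these libraries. The fit takes the 4 libraries of replicate 1 as independent, though their deviations were correlated across genes (Pearson's r 0.230 to 0.272). The p-values therefore do not measure the spread between replicate numbers.

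Erythroid precursors read their surroundings through a few pathways that are useful to keep in view. Kit and EPO receptor signals switch on immediate early genes such as FOS within minutes, without new protein synthesis. Heme is built in a chain of enzyme steps that ends when ferrochelatase inserts iron, and is broken down by heme oxygenase. Metallothioneins are small proteins that bind zinc and copper, and their genes are switched on when free metal activates the factor MTF1, which binds metal response elements close to the start of transcription.

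Library totals were 23.5 M to 31.2 M counts in replicate 1 and 25.8 M to 32.0 M in replicates 2 and 3. Erythroid genes were high in all 12 libraries (HBB 13398 to 16032 CPM, TFRC 3270 to 3763 CPM, KLF1 654 to 804 CPM). CPM is the count scaled to the size of its library, here with TMM factors. These levels go with erythroid cells but do not tell HUDEP-2 from other erythroid cells. EGR1, the targeted gene, was at 2.04, 1.12 and 0.977 CPM in sgEGR1 PBS replicates 1 to 3 and at 10.9, 5.99 and 7.45 CPM in sgControl PBS. After SCF it was at 208, 239 and 171 CPM in sgControl and at 40.4, 57.4 and 204 CPM in sgEGR1, so the library labelled sgEGR1 SCF replicate 3 goes against its label. Without that library the main count below was 3800 genes. EGR1 itself was not called between replicate 1 and the others (log2 fold change -0.42, SE 0.41, edgeR adjusted p 0.50), but in PBS libraries alone it was higher (0.79, edgeR adjusted p 0.0146).

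Among called genes with a mean of at least 2 CPM whose replicate 1 libraries lay beyond the others in every group, the largest contrasts included metal handling, the early response and granule proteins. MT1E, MT1G, MT1X and MT2A (metallothioneins), SLC30A2 (a zinc exporter of vesicles) and FOS (a subunit of the AP-1 transcription factor) led the genes that were higher in replicate 1. NMU (the neuropeptide neuromedin U) led those that were lower. Heme oxygenase HMOX1, the hypoxia factor EPAS1 and the basement membrane proteoglycan HSPG2 were each more than 2-fold higher in replicate 1, whereas most heme synthesis enzymes, several globins and 58 of 83 ribosomal proteins were lower by much smaller amounts.

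With the 4 groups fitted separately and replicate 1 as an added term, 4116 of 15492 tested genes (26.6%) were called, where a call is an adjusted p (Benjamini-Hochberg) under 0.05 in edgeR's quasi-likelihood test. Of these, 2034 (13.1%) were higher in replicate 1 and 2082 (13.4%) were lower. The split of the libraries was proposed because replicate 1 was already known to differ, so the count describes how far it differs and is not independent evidence. Most of the differences were small. The median called gene differed 1.16-fold, 598 genes (3.86%) were called with at least a 1.5-fold difference, 407 higher (2.63%) and 191 lower (1.23%), and 195 passed 2-fold, 133 higher and 62 lower. Among the 11179 genes with a mean of at least 2 CPM, 34% were called. In the fifth of genes with the highest mean CPM, 14.3% were called higher and 29.6% lower. The counts of called list members below are to be read beside these shares. With library totals as the only scaling the calls numbered 4025 and leaned towards higher, 2623 against 1402.

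The same fit with a 3-level replicate factor called 1 gene between replicates 2 and 3, BUB1B-PAK6, a readthrough transcript of the neighbouring genes BUB1B and PAK6 (log2 fold change -4.43, SE 0.53, edgeR adjusted p 0.0368). At an unadjusted p under 0.05 there were 597 genes (3.85%) between replicates 2 and 3 and 5781 (37.3%) between replicate 1 and the rest, and DESeq2 called 4 genes (0.0258%) between replicates 2 and 3. Replicate 1 lay beyond both other replicates on the same side in all 4 groups for 3966 genes (25.6% of those tested, 12.8% above and 12.8% below), of which 3378 were also called. Across the 15492 genes, the deviation of replicate 1 in one group correlated with that in another at Pearson's r 0.230 to 0.272 and Spearman's rho 0.358 to 0.468 over the 6 pairs of groups. The difference between replicates 2 and 3 gave r -0.0375 to 0.0556 over the same pairs. These correlations are across genes, which are not independent replicates.

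**Figure D1:**
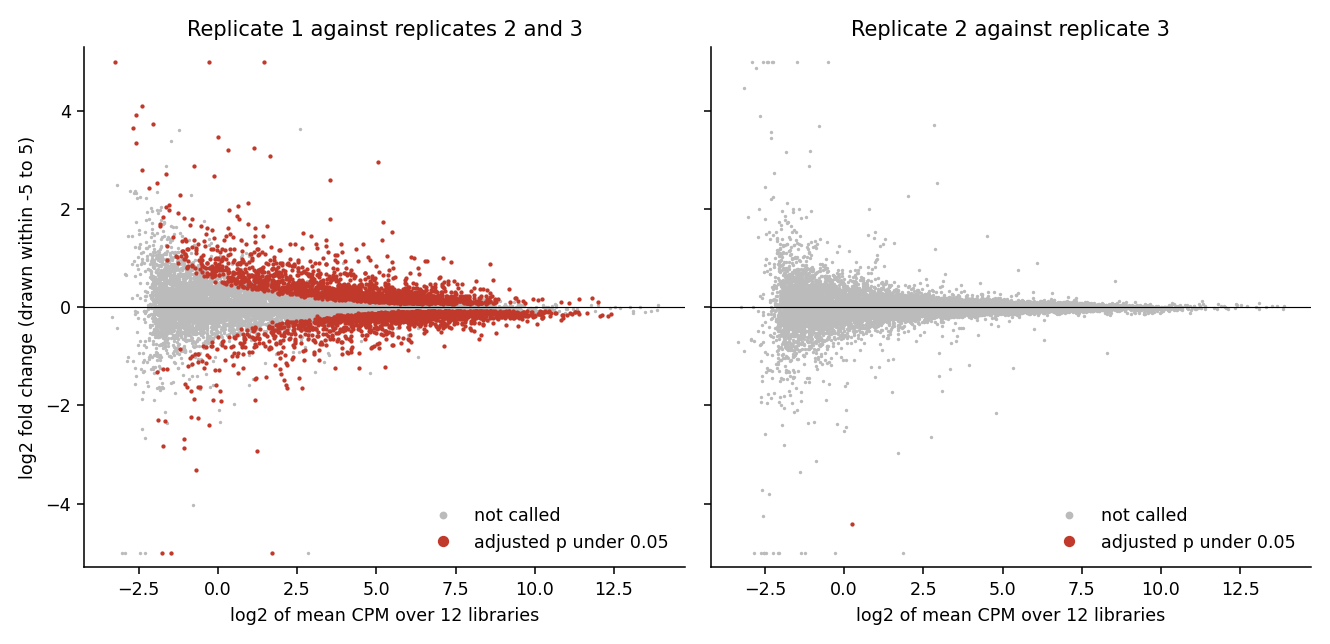
Log2 fold change of each tested gene against its mean level (log2 of mean CPM over 12 libraries), for replicate 1 against replicates 2 and 3 (left) and replicate 2 against replicate 3 (right). Red points passed an edgeR adjusted p under 0.05, 4116 on the left and 1 on the right.

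Metallothioneins had the largest median fold change of the lists. This family and the zinc transporters were taken up as lists after their values had been seen. The 12 metallothionein genes looked up included 6 that passed the filter on low counts, and all 6 of these were called higher (MT1E, MT1F, MT1G, MT1H, MT1X and MT2A), with a median log2 fold change of 2.91 beside 0.00 over all tested genes. A gene can pass that filter through one group alone, so this count is a description. The promoters of MT2A, MT1X and SLC30A2 are shown because the metal response element, the site read by MTF1, has a short core that can be searched for. RefSeq windows (GRCh38.p14) were held for 3 of the 6 metallothioneins. Each line gives the 250 bases before the start of transcription, 5′ to 3′ on the gene's own strand, with every match to the core in capitals. The core was searched as TGCACNC and TGCGCNC on both strands, so a capital run can also be the reverse complement.
MT2A, chr16:56608334-56608583, plus strand: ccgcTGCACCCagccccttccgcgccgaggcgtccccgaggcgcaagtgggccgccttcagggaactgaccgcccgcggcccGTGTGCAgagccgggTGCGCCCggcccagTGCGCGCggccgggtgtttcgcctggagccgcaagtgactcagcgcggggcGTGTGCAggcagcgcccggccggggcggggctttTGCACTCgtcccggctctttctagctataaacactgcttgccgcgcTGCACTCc
MT1X, chr16:56682220-56682469, plus strand: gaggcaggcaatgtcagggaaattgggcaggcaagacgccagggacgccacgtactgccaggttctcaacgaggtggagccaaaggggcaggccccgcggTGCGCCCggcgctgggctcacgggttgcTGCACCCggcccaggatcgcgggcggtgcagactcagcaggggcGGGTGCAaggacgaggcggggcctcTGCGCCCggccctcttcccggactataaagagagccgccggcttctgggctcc
SLC30A2, chr1:26046119-26046368, minus strand: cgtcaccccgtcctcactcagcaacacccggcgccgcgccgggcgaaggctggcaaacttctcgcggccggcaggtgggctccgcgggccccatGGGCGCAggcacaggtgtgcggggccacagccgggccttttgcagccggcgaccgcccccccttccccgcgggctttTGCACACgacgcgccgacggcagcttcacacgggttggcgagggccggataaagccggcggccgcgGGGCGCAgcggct

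The MT2A window held 7 separate matches, that of MT1X held 4 and that of SLC30A2 held 3. The window of MT1H, a scarce metallothionein whose sequence is not shown, held 8. Of 35116 promoter windows of the same length, 24.8% held at least 1 match, 1.05% at least 3 and 0.208% at least 4. Among tested genes with a window (10992), the shares were higher: 39.3% held at least 1 match, 2.0% at least 3 and 0.337% at least 4. The cores were chosen after the values were seen. A match is a string of letters and was not tested as a binding site here.

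MT2A (chr16:56608584-56609497 in GRCh38) stood at 78.1, 71.2, 71.2 and 57.4 CPM in replicate 1 of sgControl PBS, sgControl SCF, sgEGR1 PBS and sgEGR1 SCF. In the other 8 libraries it ran from 13.0 to 29.0 CPM (median 22.2), so no library of replicate 1 overlapped the rest. The difference was 3.36-fold (log2 1.75, SE 0.14, edgeR adjusted p 2.78e-06). MT1X was at 25.7, 23.0, 22.3 and 17.8 CPM in replicate 1 and at 3.54 to 9.65 CPM elsewhere (median 6.89), a 3.49-fold difference. MT1G was at 31.6, 27.1, 22.8 and 20.6 CPM against 1.23 to 7.84 CPM (median 5.69), or 6.05-fold. Its counts in replicates 2 and 3 were 152 and 165 in sgControl PBS, 162 and 194 in sgControl SCF, 33 and 47 in sgEGR1 PBS, and 45 and 251 in sgEGR1 SCF. MT1E, the scarcest of the 4, was at 6.29, 6.04, 5.54 and 3.90 CPM against 0 to 1.12 CPM (median 0.726), a fitted 9.51-fold, and 1 of its libraries held no count at all. For all 4 genes the highest value outside replicate 1 belonged to the library labelled sgEGR1 SCF replicate 3, and without it the log2 differences were 1.88 (MT2A), 1.99 (MT1X), 2.90 (MT1G) and 3.62 (MT1E). The size differed between groups, so each fold value is an average. The list median was 2.42 in sgControl PBS, 2.13 in sgControl SCF, 4.02 in sgEGR1 PBS and 2.76 in sgEGR1 SCF, and edgeR called 0 members for the guide difference. Metallothionein genes are near copies of each other, so the share of reads given to each is uncertain.

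Among 24 genes of the zinc transporter families, 17 were tested, 5 were called higher and 2 lower. SLC30A2, which moves zinc out of the cytosol into vesicles, was at 6.25, 6.25, 8.43 and 9.56 CPM in replicate 1 and at 0.419 to 1.41 CPM in the others (median 0.888), an 8.44-fold difference (edgeR adjusted p 1.03e-07). SLC39A10, which brings zinc into the cell, went the other way. It was at 21.7, 21.9, 23.4 and 22.5 CPM in replicate 1 and at 35.3 to 45.9 CPM in the others, or 1.79-fold lower (log2 -0.84, SE 0.06, edgeR adjusted p 6.28e-07). SLC39A8, also an importer, was 1.26-fold lower, at 124 to 133 CPM against 149 to 175 CPM, and SLC39A6 was higher by 0.46 on the log2 scale. SLC30A1, the exporter of the plasma membrane and a classic MTF1 target, was not called (log2 0.10, SE 0.06, edgeR adjusted p 0.275). It was at 51.6 and 56.2 CPM in replicate 1 of sgControl PBS and SCF, not above the others (54.6 to 62.5 CPM), and at 61.3 and 67.4 CPM in sgEGR1, above the others (49.9 to 58.5 CPM). This guide product was 0.36, with an edgeR adjusted p of 0.244 and a DESeq2 adjusted p of 0.00564. With an offset for the GC content of transcripts the zinc transporter count became 4 higher and 5 lower.

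**Figure D2:**
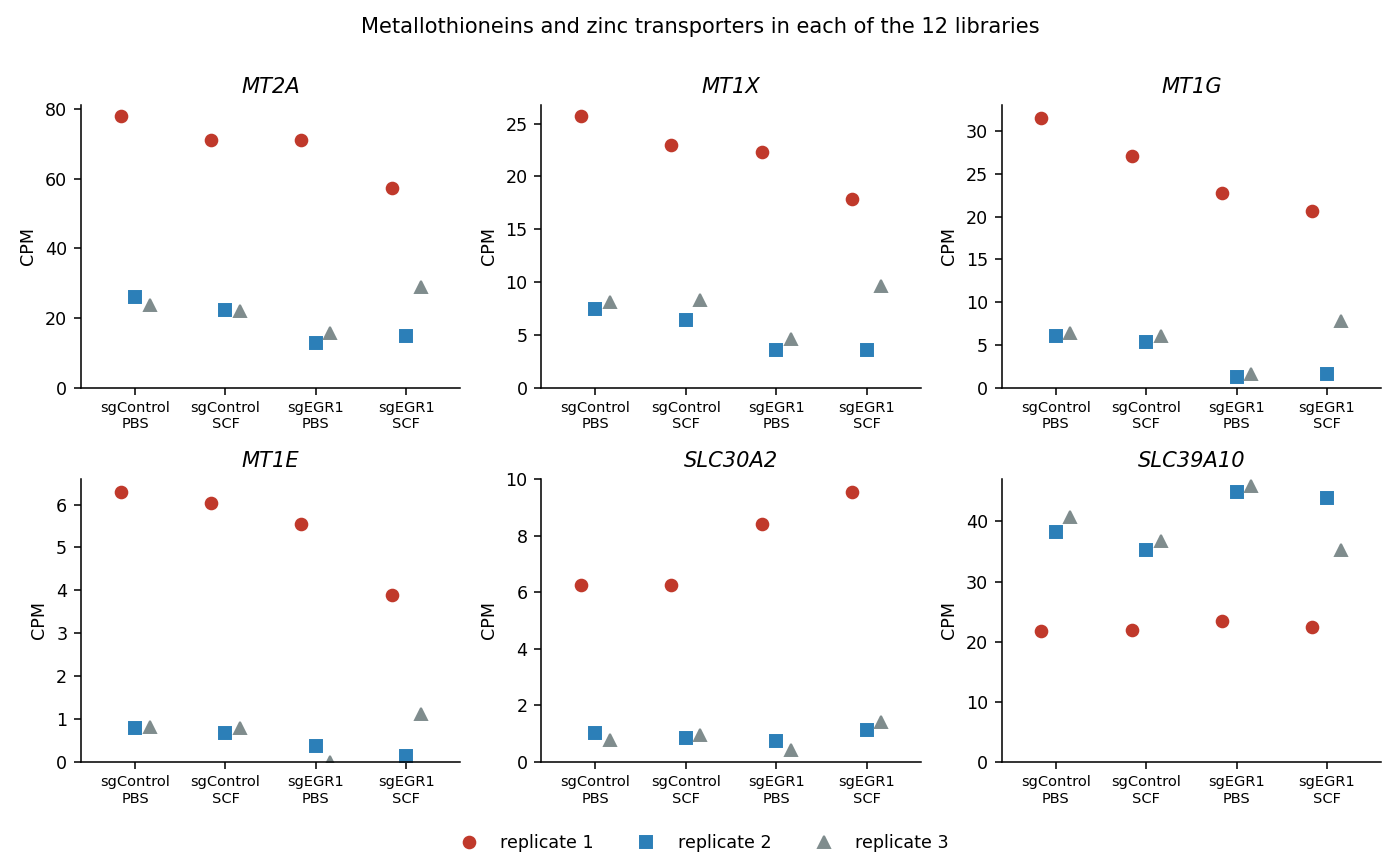
Level (CPM, linear axis) of 4 metallothioneins and 2 zinc transporters in each library, by group, with 1 symbol per replicate. Replicate 1 is above both other replicates in every group for MT2A, MT1X, MT1G, MT1E and SLC30A2, and below both for SLC39A10.

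Immediate early genes were mostly higher. Of 41 listed genes 37 were tested, 21 were called higher in replicate 1 and 3 lower (EGR2, MYC and ZFP36L1), and the median log2 fold change was 0.42. FOS (chr14:75278826-75282230) was at 21.5 CPM in replicate 1 of sgControl PBS and at 5.24 and 5.20 CPM in replicates 2 and 3. After SCF the corresponding values were 146, 15.5 and 12.01 CPM. In sgEGR1 cells they were 16.7, 2.53 and 3.52 CPM after PBS and 141, 15.4 and 13.9 CPM after SCF. The unstimulated replicate 1 libraries were thus above every SCF-treated library of replicates 2 and 3, and the fitted difference was 2.96 on the log2 scale (SE 0.16).

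JUN, the partner of FOS in AP-1, was at 36.6, 43.3, 36.7 and 43.4 CPM in replicate 1 and at 13.0 to 26.9 CPM in the other libraries (median 19.6), a 2.04-fold difference (edgeR adjusted p 7.36e-06). DUSP1, a phosphatase that switches off MAP kinases, was 1.80-fold higher, at 37.9 to 54.1 CPM against 23.1 to 28.3 CPM. ZFP36, which promotes decay of short-lived mRNAs, was 1.75-fold higher, at 107 to 116 CPM against 55.2 to 68.9 CPM. NR4A1, a nuclear receptor of the early response, and CCN1, a secreted matrix protein, were higher by 0.90 and 0.88 on the log2 scale. Other members of the same list lay close together: JUNB was at 261 to 442 CPM in replicate 1 and 252 to 456 CPM elsewhere (log2 0.00, SE 0.05), and IER2 gave 0.16 (SE 0.07, edgeR adjusted p 0.112).

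The rise after SCF was set beside this. FOS was 7.62-fold higher after SCF than after PBS within replicate 1 and 3.51-fold higher within replicates 2 and 3. The difference of these responses, 1.12 on the log2 scale (SE 0.17), had an unadjusted p of 2.74e-05 but an edgeR adjusted p of 0.106, and DESeq2 called it at an adjusted p of 0.00114. DDIT4, a brake on mTORC1, gave a smaller difference with a similar p (0.48, SE 0.07, edgeR adjusted p 0.106, DESeq2 adjusted p 1.11e-06). It was at 77.4 and 79.0 CPM after PBS and 123 and 132 CPM after SCF in replicate 1, with 84.2 to 92.8 CPM and 98.5 to 108 CPM in the others. SRF, the serum response factor, had a smaller response in replicate 1 by 0.36 (SE 0.07, edgeR adjusted p 0.210, DESeq2 adjusted p 0.000635). DUSP1 responded by 1.40-fold in replicate 1 and 1.08-fold in the others, with an edgeR adjusted p of 0.600 for the difference. Of the 37 early genes edgeR called 0 for a different SCF response, 8 reached an unadjusted p of 0.05 or less, and the median difference over the list was -0.06. Besides FOS and DUSP1, the other 6 of these had a lower SCF response in replicate 1: RGS2 (-0.82), DUSP6 (-0.75), FOSB (-0.70), JUN (-0.49), KLF10 (-0.46) and SRF (-0.36). Over all genes 2 were called (0.0129%), with 581 (3.75%) at an unadjusted p under 0.05. DESeq2 called 20 (0.129%).

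**Figure D3:**
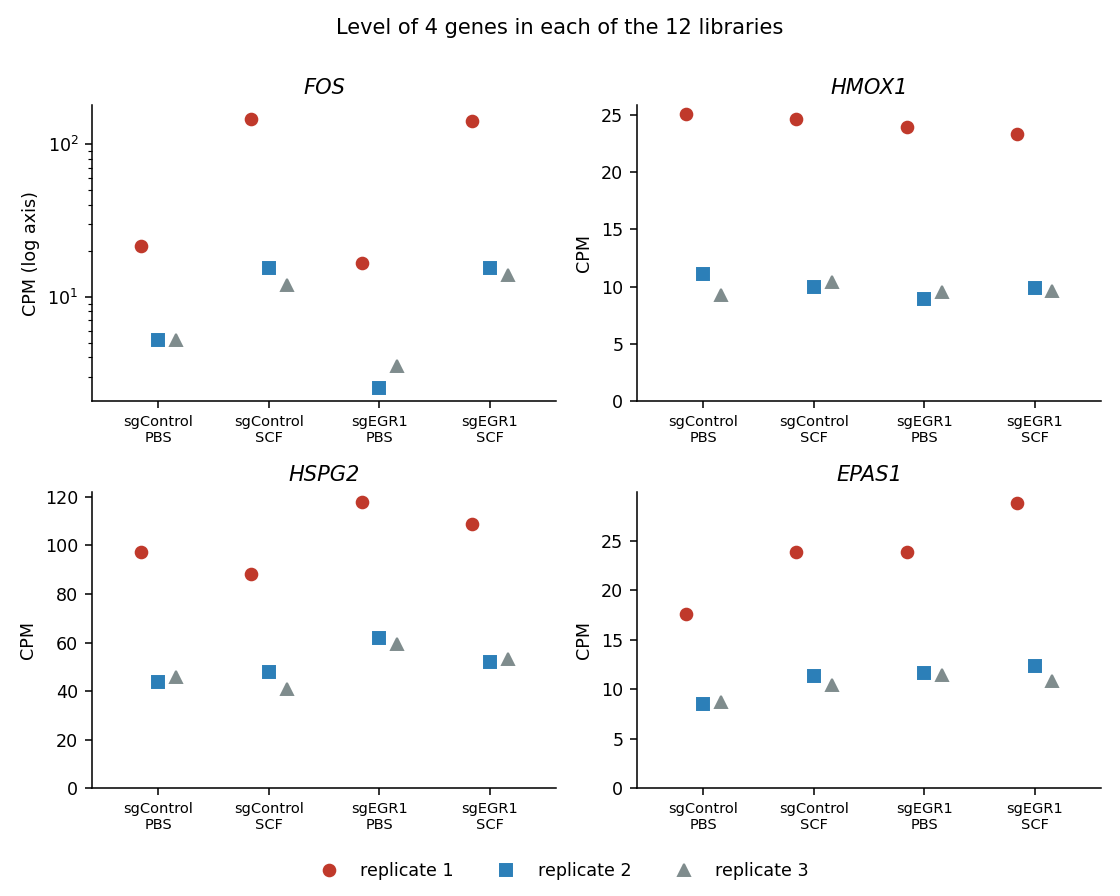
Level (CPM) of FOS (log axis), HMOX1, HSPG2 and EPAS1 (linear axes) in each library, by group, with 1 symbol per replicate. In each group the replicate 1 library is above replicates 2 and 3, and the FOS values after PBS in replicate 1 (21.5 and 16.7 CPM) are above those after SCF in the others (12.01 to 15.5 CPM).

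Heme oxygenase 1 (HMOX1, chr22:35380361-35394214), which opens the heme ring and is induced by heme, metals and oxidants, was nearly constant within each set of libraries. It was at 25.0, 24.6, 24.0 and 23.3 CPM in replicate 1 and at 8.91 to 11.1 CPM in the other 8 (median 9.75), a 2.46-fold difference (log2 1.30, SE 0.05, edgeR adjusted p 1.69e-08). Its list of BACH1 and NRF2 targets and antioxidant genes did not move as a whole. Of 32 tested, 11 were called higher and 6 lower, and the median was 0.02. GCLM, a subunit of the enzyme that makes glutathione precursors, was higher by 0.28, ME1 (malic enzyme) by 0.43, SQSTM1 (the autophagy receptor p62) by 0.37 and SRXN1 (sulfiredoxin) by 0.26, while NFE2L2, which encodes NRF2 itself, was lower by 0.28 (log2 -0.28, SE 0.03). NQO1, a standard NRF2 target, was at 3.76 to 4.25 CPM in replicate 1 and 2.60 to 3.98 CPM elsewhere and narrowly missed the threshold (edgeR adjusted p 0.0507). FTH1, the ferritin heavy chain, was higher by 0.20.

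Heme synthesis and transport lay mostly below. Of 21 tested genes 3 were called higher and 11 lower, with a median of -0.12. FECH, the ferrochelatase of the last step, was at 483, 435, 485 and 440 CPM in replicate 1 and at 553 to 632 CPM in the others (median 594), with no overlap and a 1.29-fold difference (log2 -0.37, SE 0.02, edgeR adjusted p 4.59e-07). Ahead of it in the pathway, CPOX (-0.22), UROD (-0.15), UROS (-0.23) and ALAD (-0.13) were lower as well. The mitochondrial transporters TMEM14C (-0.25) and ABCB10 (-0.21) followed. The transport genes SLC25A37 (0.10) and SLC48A1 (0.12) were called higher. Among the enzymes the exception was ALAS2, the erythroid enzyme of the first step, which was higher by 0.13 (SE 0.03, edgeR adjusted p 0.0129). The rise lay mostly in sgEGR1. There ALAS2 was at 821 CPM in replicate 1 against 708 and 720 CPM after PBS, and at 743 against 629 and 619 CPM after SCF. In sgControl it was at 742 against 735 and 717 CPM, and at 683 against 653 and 679 CPM. Its guide product was 0.19 (edgeR adjusted p 0.282, DESeq2 adjusted p 0.00226). PPOX was not called (0.01). Iron handling was divided, with 5 of 20 higher and 6 lower, or 5 and 3 with library totals as the only scaling. ERFE (erythroferrone, the erythroid hormone that lowers hepcidin) was higher by 0.47, whereas SLC40A1 (the iron exporter ferroportin) and GLRX5 (iron-sulphur cluster assembly) were lower by 0.30 and 0.32 (log2 -0.30 and -0.32). TFRC, the transferrin receptor, was not called (0.05).

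Globins, red cell membrane proteins and maturation genes showed the same direction with small sizes. For comparison, 13.4% of all tested genes were called lower, and 29.6% of the fifth with the highest mean CPM. None of 11 globin genes (AHSP included) was called higher and 5 were lower: HBZ (-0.47), HBM (-0.36), HBA1 (-0.25), AHSP (-0.22) and HBA2 (-0.17). HBA2 lost its call in 15 of 25 alternatives, DESeq2, the 3-level replicate block and library totals among them. HBB, at 13398 to 15580 CPM in replicate 1 and 14045 to 16032 CPM in the others, was not called (-0.06, SE 0.05). HBG1 was listed at 0 in sgControl PBS replicate 1 while HBG2, a near-identical gene, was at 27.9 CPM there, so the γ-globin pair was not read further. In the red cell membrane and skeleton list 2 of 28 were higher and 12 lower, a balance that became 4 and 5 with library totals as the only scaling. AQP1, the water channel, was the called member furthest down, at 69.4 to 80.5 CPM against 84.4 to 119 CPM (log2 -0.48, SE 0.04), and ICAM4 (-0.32), GYPB (-0.23) and RHAG (-0.23) were also lower. SLC4A1 (band 3) was not called. Of 27 late maturation genes 2 were higher, GMPR and SLC14A1, and 15 were lower, among them SELENBP1 (-0.38) and RIOK3 (-0.26), the latter named after its values were seen.

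**Figure D4:**
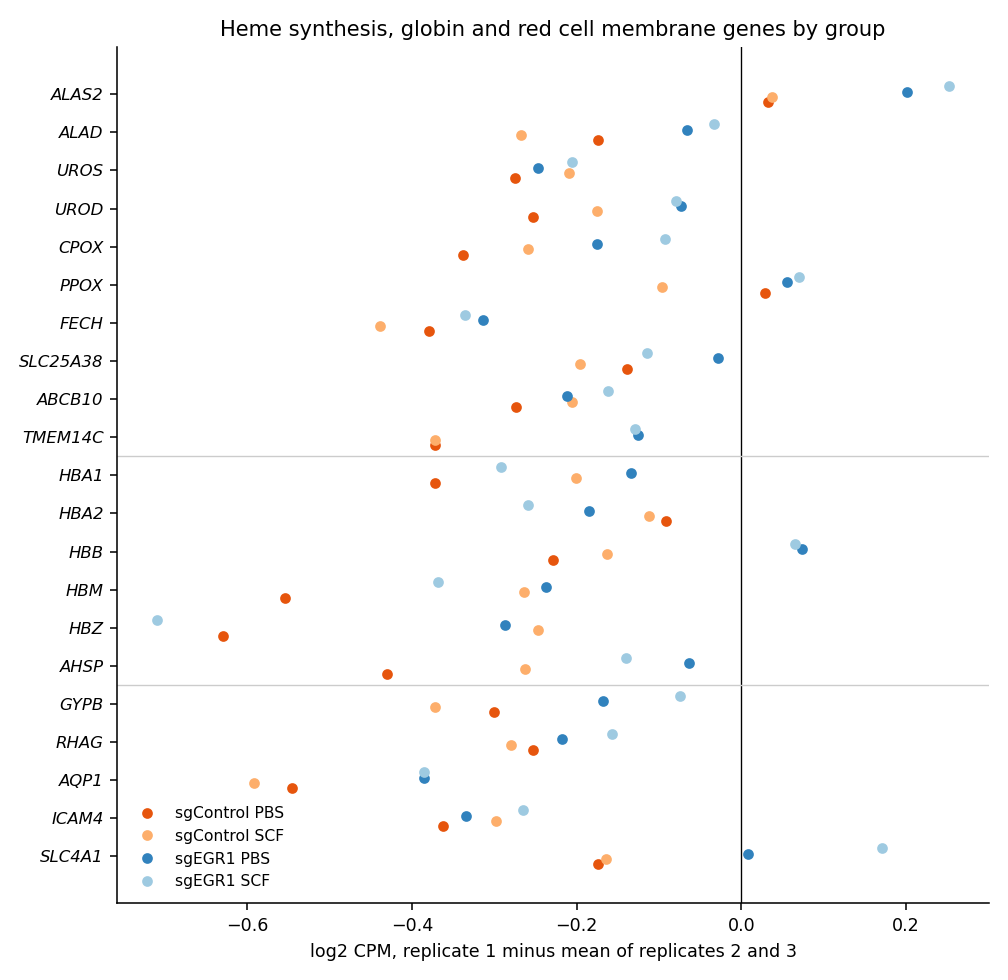
Difference in log2 CPM between replicate 1 and the mean of replicates 2 and 3 for heme synthesis genes (top), globins and AHSP (middle) and red cell membrane genes (bottom), with 1 point per group. FECH, UROS, ABCB10, TMEM14C, AQP1 and ICAM4 are below 0 in all 4 groups, while ALAS2 is above 0 in all 4, by more in sgEGR1 than in sgControl.

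Transcription factors of the lineage were divided. SOX6, a repressor of embryonic and fetal globin genes, was at 7.30, 8.66, 5.79 and 7.11 CPM in replicate 1 and at 9.63 to 14.4 CPM elsewhere (log2 -0.76, SE 0.09, edgeR adjusted p 4.41e-05). Its partner BCL11A was lower by 0.35 (log2 -0.35, SE 0.06), MYB, a factor of proliferating progenitors, was 1.33-fold lower (174 to 225 CPM against 250 to 283 CPM), and STAT5A, a mediator of EPO receptor signals, was 1.29-fold lower. LMO2 and, by a small margin, GATA1 were lower (-0.31 and -0.10). GATA2, the factor that GATA1 replaces during maturation, was higher by 0.52 (SE 0.04, edgeR adjusted p 7.91e-07), as was HHEX by 0.65. Over 30 regulators and EPO pathway genes 5 were higher and 12 lower, and over 15 progenitor genes 4 were higher and 5 lower. The shares over all tested genes were 13.1% higher and 13.4% lower. KIT, the receptor of SCF, did not differ measurably (462 to 555 CPM over all libraries, log2 0.01, SE 0.03).

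EPAS1 (chr2:46293667-46386697), which encodes the oxygen-regulated factor HIF-2α, was at 17.6, 23.9, 23.9 and 28.9 CPM in replicate 1 and at 8.51 to 12.3 CPM in the others (median 11.1), a 2.20-fold difference (edgeR adjusted p 6.88e-08). The list of hypoxia regulators and HIF targets did not move as a whole. It holds EPAS1 itself and does not separate targets of HIF-2α from those of other HIF factors. Of 32 members tested 7 were called higher, EPAS1 and the regulator VHL among them. Another 3, with the HIF partner ARNT among them, were called lower, and the median was 0.00. VEGFA (0.31), PFKFB3 (0.30), PDK1 (0.24) and ERO1A (0.21) were higher, P4HA1 was lower (-0.26), and HIF1A (0.06), NDRG1 (-0.00) and BNIP3 (-0.13) were not called. BHLHE40, a clock and hypoxia repressor named after its values were seen, was higher by 1.42 but scarce (1.23 to 3.38 CPM against 0.504 to 1.60 CPM). Glycolysis enzymes were split 5 to 5 among 20, or 4 higher and 8 lower with the GC offset described further on. PKM, which makes pyruvate, was at 54.2, 59.6, 61.7 and 62.6 CPM in replicate 1 and at 19.5 to 45.8 CPM in the others (2.05-fold), and ALDOC and ENO2, isoforms best known from brain, were higher by 0.65 and 0.41. The muscle-type PFKM was lower by 0.41 (log2 -0.41, SE 0.04), and LDHA and PGK1 were not called.

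The guide difference of PKM was also compared between the replicates. In sgControl it was at 54.2 and 59.6 CPM in replicate 1 and 19.5 to 22.5 CPM in the others, while in sgEGR1 it was at 61.7 and 62.6 CPM against 34.7 to 45.8 CPM. The product term was -0.78 on the log2 scale and did not pass in edgeR (log2 -0.78, SE 0.11, edgeR adjusted p 0.0591, DESeq2 adjusted p 1.94e-08). Over all genes edgeR called 1 (0.00645%), with 1209 (7.80%) at an unadjusted p under 0.05, and DESeq2 called 64 (0.413%). The library labelled sgEGR1 SCF replicate 3 enters this comparison, and without it edgeR called 3 genes.

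The matrix and adhesion list was led by HSPG2 (chr1:21822244-21937310), which encodes perlecan, a proteoglycan of basement membranes. It was at 97.2, 88.3, 118 and 109 CPM in replicate 1 and at 41.0 to 61.7 CPM in the others (median 50.1), with no overlap and a 2.04-fold difference (log2 1.03, SE 0.04, edgeR adjusted p 1.69e-08). ITGB4, the laminin-binding integrin subunit of hemidesmosomes, was 1.93-fold higher (115 to 157 CPM against 56.8 to 86.8 CPM), and LAMC1 and COL18A1, both basement membrane components, were higher by 0.48 and 0.36. ITGB1 and ITGA4, the subunits of the fibronectin receptor VLA-4, were lower by 0.36 and 0.20 (log2 -0.36 and -0.20). In all 5 of 17 tested members were higher and 3 lower.

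Markers of other blood lineages were mostly silent, with a few granule genes as the exception. No lymphoid marker was tested, and of 15 myeloid and mast cell markers 6 were tested and 5 were called higher. Defining myeloid genes (MPO, ELANE, AZU1, ITGAM) held no count in any library. PRG2, the eosinophil and mast cell granule protein, was at 92.1, 95.9, 69.0 and 66.2 CPM in replicate 1 and at 24.9 to 29.1 CPM in the others (2.91-fold, edgeR adjusted p 6.88e-08). TPSAB1 and TPSB2, the mast cell tryptases, were at 197 to 209 CPM and 134 to 150 CPM in replicate 1, against 84.9 to 127 CPM and 61.5 to 97.6 CPM. They are near copies, so their reads may be shared. CPA3 and MS4A2 completed the 5, each at under 2 CPM in every library. Summed over the list, the level was 423 to 442 CPM in replicate 1 and 174 to 255 CPM in the others. ITGA2B, the platelet integrin αIIb, was 1.90-fold lower, at 12.01 to 15.8 CPM against 20.3 to 35.2 CPM, and 6 of the 12 platelet markers held no count.

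Stress and nutrient lists differed in how uniform they were. ATF4 targets and amino acid response genes had 15 of 29 members higher and 2 lower (median 0.20), including PHGDH and PSAT1 (serine synthesis; 0.55 and 0.38), SLC7A5 (the leucine carrier; 163 to 218 CPM against 117 to 161 CPM, log2 0.47), SESN2 (0.42) and TRIB3 (0.46). ATF4 mRNA itself was not called (0.02). Glucocorticoid targets had 10 of 15 higher and 1 lower (median 0.31), which counts MT2A, MT1X, DUSP1 and SGK1 again. PER1 (a clock gene; 0.59), CEBPD (0.54) and ERRFI1 (0.47) were among them, TSC22D3 (GILZ) was higher by 0.31 and FKBP5 by 0.13, and the receptor NR3C1 was not called (-0.04). FOXO and starvation genes had 8 of 21 higher and 2 lower (median 0.10), with FOXO1 (0.48), IRS2 (0.47) and GABARAPL1 (0.40) at the top and SESN1 (-0.40) at the bottom.

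Heat shock genes had 11 of 23 members higher and 5 lower, all within a small range apart from 2 scarce genes, HSPA6 (0.44) and CRYAB (-1.17), both chosen after their values were seen. FKBP4 (0.28) and AHSA1 (0.22), co-chaperones of HSP90, were higher, and HSPD1, the mitochondrial chaperonin, was lower (-0.21). In the unfolded protein response list 2 of 20 were higher, HSPA5 (BiP, 193 to 217 CPM against 145 to 184 CPM, log2 0.31) and SYVN1 (0.11), and CANX was lower (-0.08). SYVN1 lost its call in 16 and CANX in 12 of 25 alternatives. Of 23 p53 targets 3 were higher, led by GDF15 (0.61), and 8 lower, led by SESN1 and TNFRSF10B (-0.38). Lists near the all-gene shares of 13.1% and 13.4%, or divided between directions, were DNA replication (7 higher and 6 lower of 40), mitosis (4 and 3 of 28), cholesterol synthesis (5 and 6 of 25, or 7 and 3 with library totals as the only scaling) and interferon response (1 and 2 of 18, with IFIT1 at -0.65). Of 12 NF-κB targets 0 were higher and 1 lower, NFKBIB (-0.12, lost in 17 of 25 alternatives), which library totals as the only scaling turned into 2 higher and 0 lower.

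The called members of the translation and respiration lists were lower by small steps. Of 83 cytosolic ribosomal protein genes 58 were lower in replicate 1 and 0 higher, with a median of -0.14. RPL17 was at 743 to 780 CPM against 851 to 1032 CPM and RPSA at 672 to 694 CPM against 773 to 860 CPM. The share of counts in this list was 7.26% to 7.61% in replicate 1 and 7.60% to 8.40% in the others, and with library totals as the only scaling 35 members were lower. The size differed between groups: the median over the ribosomal list was -0.24 in sgControl PBS, -0.17 in sgControl SCF, -0.02 in sgEGR1 PBS and -0.10 in sgEGR1 SCF, and in sgEGR1 PBS the share was 7.61% in replicate 1 and 7.62% and 7.60% in the others. For the guide difference 43 of the 83 had an unadjusted p under 0.05 and edgeR called 0. Of 82 nuclear-encoded subunits of the respiratory chain 35 were lower and 0 higher (median -0.10, from -0.18 in sgControl PBS to -0.02 in sgEGR1 PBS), for example COX7C (-0.25) and NDUFB6 (-0.20). Genes of the mitochondrial genome, which the table lists without the usual prefix, had 4 higher and 8 lower among 36, mostly transfer RNAs. Ribosomal protein genes have many processed pseudogenes, so their reads may be shared.

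**Figure D5:**
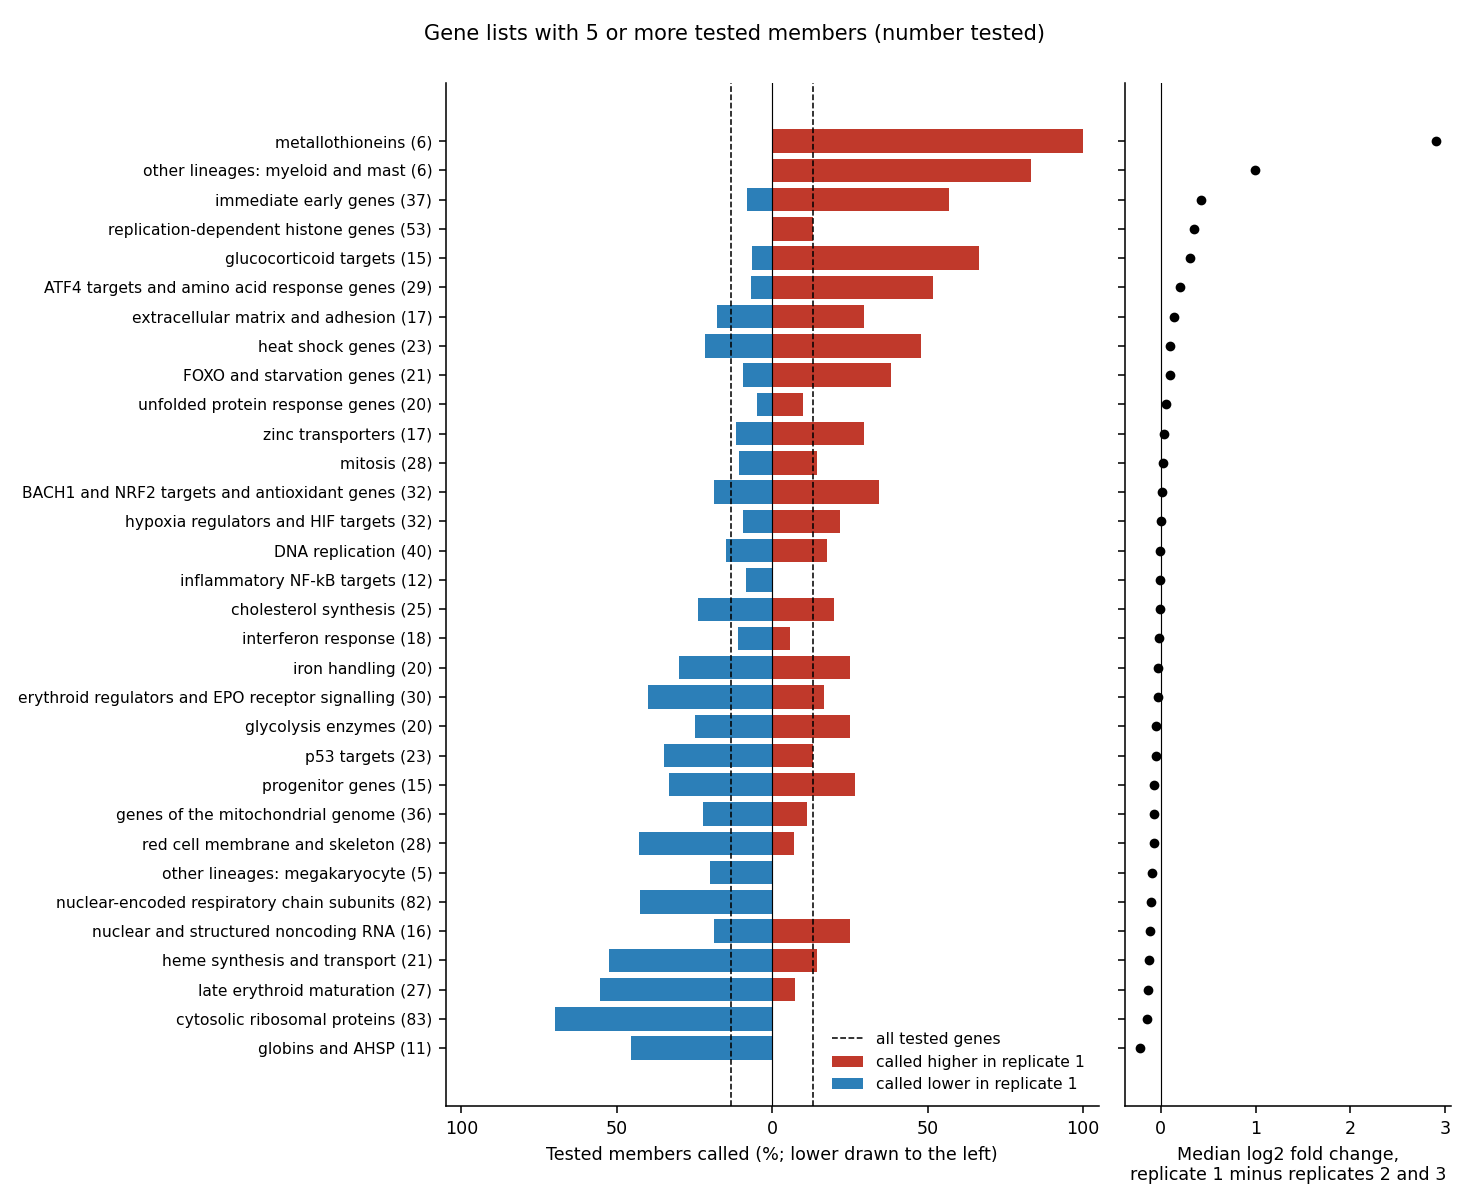
Share of tested members called higher (right) or lower (left) in replicate 1 for each list with at least 5 tested members, with the shares over all tested genes as dashed lines (13.1% and 13.4%), and the median log2 fold change of each list (right panel). Metallothioneins are at the top with 6 of 6 higher, and ribosomal proteins near the bottom with 58 of 83 lower. The dashed lines do not allow for level: 29.6% were called lower in the fifth of genes with the highest mean CPM.

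Nuclear and structured noncoding RNAs were divided, with 4 higher and 3 lower of 16 and a median of -0.11. NEAT1, the nuclear scaffold of paraspeckles, was at 663, 478, 598 and 479 CPM in replicate 1 and at 257 to 333 CPM in the others (1.84-fold, edgeR adjusted p 1.45e-07), and MALAT1 was higher by 0.38 and RN7SK by 0.50, while the small nucleolar RNA hosts SNHG1 (-0.23) and GAS5 (-0.13) and the ribosomal RNA precursor RNA45SN4 (-0.26) were lower. Of 53 replication-dependent histone genes 7 were called higher and 0 lower (13.1% of all genes were called higher), among them H2BC12 (0.41) and H3C3 (0.42), with a median of 0.35. Their share of all counts was 0.0154% to 0.0212% in replicate 1 and 0.0131% to 0.0199% in the others, and replicate 1 was the highest in 4 of 4 groups (exact two-sided stratified permutation test, p = 0.0123, the smallest that 81 arrangements allow, adjusted p = 0.0412 over 10 library measures). The same p held for the summed share of the noncoding RNA list (0.180% on average in replicate 1 and 0.139% in the others), to which NEAT1 and MALAT1 contribute most. It also held for the metallothionein share (0.0130% and 0.00328%), a list added after its values were seen. Its place among the 10 measures lowers the adjusted p of the shares tied with it. The test moves replicate 1 separately in each group, and replicate 1 was already known to differ, so these p-values are descriptions. The ribosomal protein share did not pass after adjustment (adjusted p 0.0617 by the same exact test), nor did the mean GC content of the counted transcripts (adjusted p 0.148, same exact test). Total counts, the mitochondrial share, the globin share, the number of genes with a count and the share of the 10 most abundant genes gave adjusted p-values of 0.370, 0.852, 0.212, 0.212 and 0.754 by the same exact test. The fold change moved with the GC content of transcripts, from a median of -0.04 in the fifth of genes with the lowest GC to 0.08 in the fifth with the highest, while replicate 2 against replicate 3 gave -0.02 and 0.03. With an offset for GC content 4089 genes were called, of which 3364 were also called without it, all in the same direction.

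The remaining genes at the extremes have no common list. LZTS3, EPB41L3, PRG2 and CDK15 completed the 10 that were furthest up by the rule for named genes. CDK15, a little studied kinase, was at 10.1 to 13.1 CPM in replicate 1 and 3.19 to 5.31 CPM in the others (2.85-fold), EPB41L3, a membrane skeleton protein of the band 4.1 family, was at 3.50 to 4.76 CPM against 0.817 to 1.91 CPM, and LZTS3, which encodes a leucine zipper protein, was at 4.34 to 5.83 CPM against 1.05 to 2.50 CPM. NMU was the furthest down by the same rule. It was at 0.542, 0.532, 0.383 and 0.276 CPM in replicate 1, or 8 to 17 counts, and at 1.84 to 4.84 CPM in the others, which is 7.64-fold lower (log2 -2.93, SE 0.27, edgeR adjusted p 6.52e-06).

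SEMA4D, a semaphorin of the cell surface, was 3.13-fold lower, at 1.83 to 3.76 CPM against 6.85 to 8.93 CPM. DAB2IP, a negative regulator of RAS signals, was 3.14-fold lower and C17orf99, which encodes interleukin 40, 2.99-fold lower. ALDH1A1 (retinaldehyde dehydrogenase), SELENOP (a selenium carrier), CTSH (cathepsin H), UBASH3A and MYRF were lower by 1.43 to 1.48 on the log2 scale. CA5B (a mitochondrial carbonic anhydrase; -1.89) shares exons with the pseudogene CA5BP1 and lost its call in 3 of 25 alternatives. HSPG2, SELENOP, MYRF, MYB, COL18A1, SQSTM1, PFKM and STAT5A overlap an exon of a gene on the opposite strand, whose reads may be included, since the use of strand in counting is not stated.

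Of the 175 named genes that were called, 139 kept their call whichever of the 12 libraries was left out, and 94 kept it in all 25 alternatives. FOS, HMOX1, EPAS1, HSPG2, the 4 metallothioneins, SLC30A2, NMU, FECH, PKM, PRG2, TPSAB1, ITGA2B and NEAT1 were among the latter.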

How the data were processed

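RNA-seq of 12 HUDEP-2 libraries (4 groups of 3) was analysed from 1 table of 54628 genes. Per the paper's methods, the authors aligned reads to hg38 with HISAT and deposited StringTie estimated counts per gene; all values were whole (0 were not) and were used as whole counts. The kit in the labels is not the one in the methods. Column codes were matched to titles by guide, treatment and replicate number. No count was normalised before deposit.

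Of 27654 genes with a count, 15492 passed edgeR's expression filter, holding at least 99.9% of each library's counts. Counts were TMM-scaled and fitted in edgeR 4.0.16 (R 4.3.3) by quasi-likelihood with 4 group coefficients and a replicate 1 term. Products with SCF or guide, and replicate 2 against replicate 3, were separate fits. P-values were adjusted by Benjamini-Hochberg over all tested genes, and DESeq2 1.42.0 was an alternative. SE is the log2 fold change divided by the root of F. Coordinates and exon overlaps are from GENCODE 44 (GRCh38), promoter sequences from RefSeq.

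Named genes were FOS, HMOX1, HSPG2, EPAS1 and EGR1, the 10 called genes per direction with the largest fold change, a mean of at least 2 CPM and replicate 1 beyond both others in all 4 groups, up to 6 called members of each list by size, and up to 4 called genes per direction of the other comparisons; members that were not called are named for context. Some genes are not reported here. The comparison, the members and the lists were chosen with earlier results of these data known, and the 2 metal lists, the motif cores and the GC offset after the values were seen. In simulated data with 200 changed genes, the replicate 1 fit recovered 59% of 1.5-fold and 79% of 2-fold changes, with 5 and 4 false calls. The precision of a level is limited by counting at low CPM.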

Additional observations from a re-analysis of the deposited data

Results flagged for a closer look

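3 genes had a response that differed between replicate 1 and the other replicates by the product term of the edgeR fit, each with libraries at or near 0. KEL, the Kell blood group protein, had an SCF response lower in replicate 1 by a fitted log2 difference of -9.58 (edgeR adjusted p 0.00499). Its counts after SCF were 0 and 0 in replicate 1 of sgControl and sgEGR1, against 101, 63, 104 and 83 in replicates 2 and 3. After PBS they were 151 and 65 against 89, 77, 103 and 101. WASH7P, a pseudogene, gave -9.06 (edgeR adjusted p 0.00169), with counts of 110, 0 and 0 in sgControl PBS replicates 1 to 3, 85, 91 and 108 in sgControl SCF, 0 in all of sgEGR1 PBS, and 73, 84 and 114 in sgEGR1 SCF.

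MIR600HG, a microRNA host gene within the exons of STRBP, had a guide difference higher in replicate 1 by a fitted 10.77 (edgeR adjusted p 0.0259). Its counts were 10, 459 and 502 in sgControl PBS replicates 1 to 3, 13, 6 and 4 in sgControl SCF, 396, 4 and 3 in sgEGR1 PBS and 484, 3 and 7 in sgEGR1 SCF, so high values occurred in both guides. Fitted differences against libraries at 0 depend on the prior count and are no measure of size.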

How the results depend on the processing

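The number of genes called between replicate 1 and the others was 3591 to 4114 under DESeq2, other size factors, library totals, other filters, a GC offset and a replicate block, and every shared call kept its direction. It was 2449 with replicates 1 and 2 only, 2672 with replicates 1 and 3 only, 2143 and 2079 in sgControl or sgEGR1 libraries only, 1755 and 1530 in PBS or SCF libraries only, each with fewer samples, and 598 at 1.5-fold or more. Leaving out 1 library gave 2863 (without sgControl SCF replicate 1) to 3900.

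Replicate 2 against replicate 3 gave 4 genes with DESeq2, 0 with edgeR and no filter (756 at an unadjusted p under 0.05), and 0 to 2 with 1 library left out; the 0 arose without sgEGR1 PBS replicate 2 or sgEGR1 SCF replicate 1 or 2 (516 to 713 at that p). The SCF product gave 20 with DESeq2, 11 with no filter, and 2 to 8 with 1 library left out (8 without sgControl SCF replicate 1). The guide product gave 64 with DESeq2, 4 with library totals, 4 with no filter, 5 with the 2 CPM filter, and 0 to 5 with 1 library left out (0 without sgControl PBS replicate 3, with 1173 at an unadjusted p under 0.05).

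Libraries sharing a replicate number are not said to share a culture or day. Their deviations correlated at 0.230 to 0.272 for replicate 1, 0.00766 to 0.103 for replicate 2 and 0.0365 to 0.126 for replicate 3, and 8 of 12 libraries correlated best with their own number. With the replicate block of 3 levels the main count was 4017 (3907 shared), the SCF product 2 and the guide product 0 (1213 at an unadjusted p under 0.05).

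Among named genes that were not called in the main fit, direction reversed in some alternatives. BUB1B-PAK6 gave 1.25 (edgeR adjusted p 0.0379) with the replicate block and 3.57 (0.00618) with replicates 1 and 2 only. EGR1 gave 0.79 (0.0146) in PBS libraries only, and MIR600HG gave -4.10 (0.0201) in sgControl libraries only. The cause was not tested. Depth limits genes near 1 CPM, where calls rest on few counts.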
